A study of Mus musculus with 3 samples.

Results

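Interleukins are secreted proteins through which leukocytes, epithelium, endothelium and stroma signal to each other, and most act on receptors built from 2 or more chains. Here 43 genes of this kind were described in whole lung: every gene whose single symbol in the platform annotation starts with Il and a digit, apart from Il1b and Il1r2, which were left out by rule. They are 43 of 8251 genes with a single symbol, and each was represented by its brightest probe set (by mean over the arrays). By role they comprised 18 ligands, 22 receptor chains and 3 soluble antagonists or binding proteins. Apart from leaving out Il1b and Il1r2, the rule used only the annotation and brightness. It was set with earlier results of these data known.

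The samples were total RNA of lungs from mice with a B16 tumour under the skin of the back, from mice with an LLC tumour at the same site, and from normal mice, which served as the control. B16 is a mouse melanoma line and LLC the Lewis lung carcinoma line of mouse. The design models the lung before tumour cells reach it. Whether tumour cells were present in these lungs was not examined. Each group had 1 Affymetrix array, so no difference below has a replicate check and all of them describe these 3 arrays. Strain, sex, age, time after injection, number of animals and any treatment of the normal mice are not stated in the labels. Markers of lung epithelium were present, as the tissue label requires: of 8 listed, 6 were found, and their summed signal was 15854 in B16-bearing and 15762 in LLC-bearing lung, versus 13762 in normal lung. In whole lung, fewer cells of a type and less RNA per cell cannot be told apart.

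As background, ligands and receptors differ in how their genes are usually run. Most interleukin genes are switched on by infection, damage or antigen in a minority of cells, and their RNAs are short-lived. Receptor chains are often present beforehand, so that a cell can respond. Chains are shared: Il6st (gp130) signals for interleukin 6, interleukin 11 and interleukin 27, Il4ra serves interleukin 4 and interleukin 13, and Il10rb serves interleukin 10 and its relatives. Class I chains pass the signal to Jak kinases and Stat factors, and interleukin 1 family receptors pass it through Myd88 and Irak kinases.

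More of the ligands than of the receptor chains lay near background. The floor, used as the line below which a signal was not read, was 23.6, the 40th percentile of all scaled signals. It is no detection call. Above it on at least 1 array lay 6 of 18 ligands, 14 of 22 receptor chains and 0 of 3 antagonists. Together these were 20 of 43 members, or 46.5%, against 74.5% of all 8251 genes. On all 3 arrays it was 5 ligands and 11 receptor chains, or 27.8% and 50% of their class, against 62.2% of all genes. Below the floor on all 3 arrays were 12 ligands, 8 receptor chains and 3 antagonists, 23 in all. These counts compare each gene with 1 line; probe sets differ in how brightly they report an RNA, so the signals of ligands and receptors were not set against each other gene by gene.

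A stricter view came from the array's own controls for yeast and Bacillus sequences, 19 probe sets whose scaled signals ran from −55.4 to 46.1 with a median of −0.6. Of their 57 values, 7 were above the floor of 23.6, so a signal just above it can also come from a probe set for another organism. The labels do not say which control RNAs were added to the samples. Of the members, 3 ligands and 8 receptor chains were above 46.1 on all 3 arrays. Between the floor and 2 times the floor (47.2) on their best array lay 3 ligands and 2 receptor chains. Above 47.2 on all 3 arrays were 11 members, or 25.6%, against 50.8% of all genes. Above a signal of 100 on all 3 arrays were 1 ligand, Il1a, and 5 receptor chains, against 33.7% of all genes.

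**Figure D1:**
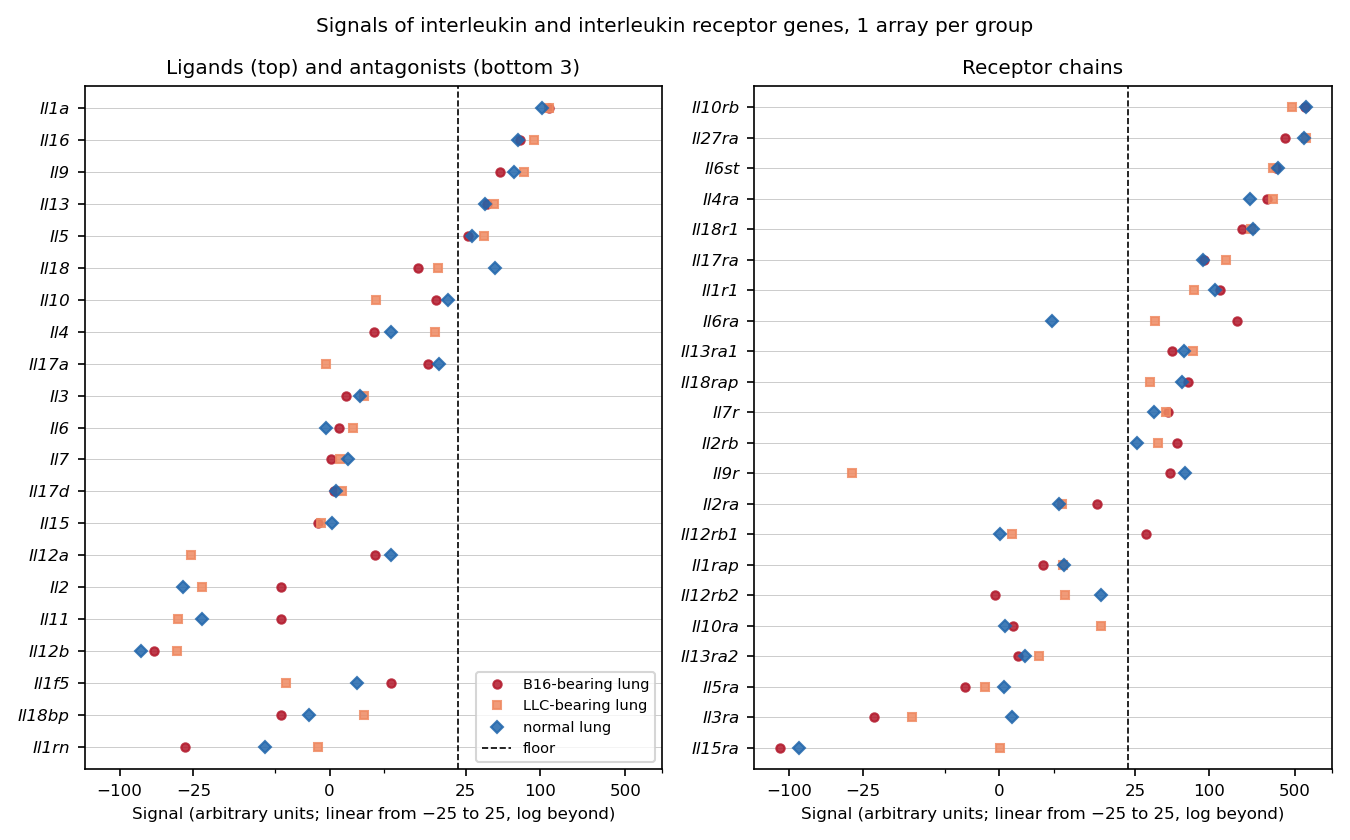
Signal of each of the 43 genes (x axis, arbitrary units, linear near 0 and logarithmic beyond) on the B16-bearing, the LLC-bearing and the normal array, with 1 point per array and the floor of 23.6 as a dashed line. Of the 18 ligands 5 lie right of the floor on all 3 arrays, against 11 of the 22 receptor chains, and the 3 antagonists all lie left of it.

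**Figure D2:**
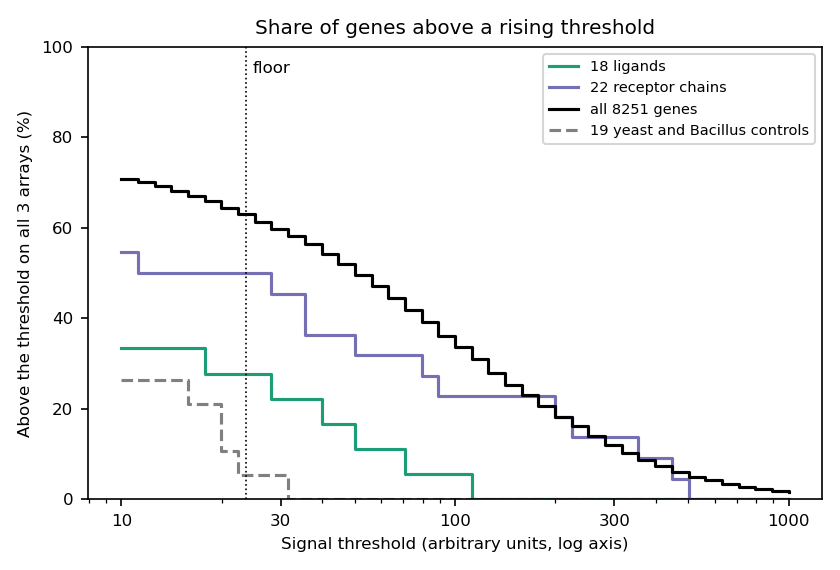
Share of genes (y axis, percent) whose signal exceeded a rising threshold (x axis, arbitrary units, log scale) on all 3 arrays, for ligands, receptor chains, all genes and the yeast and Bacillus controls. The ligand line lies below the receptor line and the line of all genes throughout the range drawn up to a signal of 100.

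Promoter composition, which the arrays did not measure, was set beside these counts as a description. RefSeq windows of 250 bases before a gene start (build GRCm38.p6) were found for 15 ligands, 16 receptor chains and 3 antagonists. The sequence CG, which is sparse in most of the mouse genome and dense in many promoters of widely expressed genes, occurred a median of 3 times per ligand and 6.5 times per receptor chain, against 6 over 27025 genes. Where a gene had several windows, their median was taken. The letters TATAAA stood on the sense strand in 4 of 15 ligands and 1 of 16 receptor chains, against 8.94% of all genes. On either strand (TATAAA or TTTATA) it was 5 ligands and 1 receptor chain, against 14.3% of all genes. In Il1a, Il2, Il13 and Il17a the first base of TATAAA lay 32, 31, 29 and 31 bases before the start. The windows of a pair of ligands above the floor and of a pair of receptor chains are shown to make the contrast visible. They were chosen after the sequences were seen and run 5′ to 3′ on the gene's strand, with every CG and every TATAAA in capitals.
Il1a, chr2:129309973-129310222, minus strand: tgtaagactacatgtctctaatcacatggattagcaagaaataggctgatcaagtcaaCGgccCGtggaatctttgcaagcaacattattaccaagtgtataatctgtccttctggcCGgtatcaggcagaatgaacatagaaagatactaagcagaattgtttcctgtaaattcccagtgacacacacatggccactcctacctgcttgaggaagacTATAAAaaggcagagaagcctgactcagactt
Il13, chr11:53634703-53634952, minus strand: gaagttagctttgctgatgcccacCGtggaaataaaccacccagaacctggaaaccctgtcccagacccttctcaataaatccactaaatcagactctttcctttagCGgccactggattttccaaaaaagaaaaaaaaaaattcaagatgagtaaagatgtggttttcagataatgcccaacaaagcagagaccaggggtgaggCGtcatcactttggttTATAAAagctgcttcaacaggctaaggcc
Il6st, chr13:112463820-112464069, plus strand: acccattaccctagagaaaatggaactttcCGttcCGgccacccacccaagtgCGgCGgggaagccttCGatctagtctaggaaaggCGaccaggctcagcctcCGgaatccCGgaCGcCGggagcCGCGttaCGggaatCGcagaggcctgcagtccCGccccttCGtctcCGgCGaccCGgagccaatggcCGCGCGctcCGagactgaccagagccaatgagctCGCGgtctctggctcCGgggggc
Il6ra, chr3:89913197-89913446, minus strand: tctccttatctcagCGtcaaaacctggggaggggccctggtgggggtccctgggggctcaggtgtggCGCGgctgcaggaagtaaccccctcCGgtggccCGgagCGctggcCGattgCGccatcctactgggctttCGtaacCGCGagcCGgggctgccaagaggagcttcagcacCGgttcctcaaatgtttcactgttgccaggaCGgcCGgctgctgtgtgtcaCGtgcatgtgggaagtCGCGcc
The 250 bases held 3 CG in Il1a, 3 in Il13, 26 in Il6st and 18 in Il6ra, and TATAAA stood in both ligand windows and in neither receptor window. In Il13 the matches on both strands overlap. CG counts did not follow the signals gene by gene. Il1rap with 30 CG and Il3ra with 27 lay below the floor on all 3 arrays, while Il18r1, with 3, 7 and 6 CG in its 3 windows, was above 100 on all of them. A match is a description of these letters and not a site.

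Among the ligands, Il1a encodes interleukin 1 alpha, an alarm signal that cells release when damaged. Its signal was 120.3 in B16-bearing and 118.6 in LLC-bearing lung, versus 104.8 in normal lung. It was the ligand with the narrowest range of the 5 that were above the floor throughout, with 1.15-fold between the brightest and the dimmest array. Il16, a chemoattractant for CD4+ cells, had 69.0, 90.5 and 67.2 in the B16-bearing, the LLC-bearing and the normal lung. Il9, a growth factor of mast cells and T cells, had 47.6 in B16-bearing and 74.7 in LLC-bearing lung, versus 61.3 in normal lung. The B16-bearing and LLC-bearing lungs lay on either side of the normal lung for Il9, 1.57-fold apart.

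Il13 and Il5, the type 2 cytokines that act on airway epithelium and on eosinophils, were dimmer. The Il13 signal was 36.9 in B16-bearing and 42.2 in LLC-bearing lung, versus 35.8 in normal lung. The Il5 signal was 26.3 and 35.5 in the B16-bearing and LLC-bearing lungs, versus 27.9 in the normal lung. All 6 of these values lay below the highest yeast or Bacillus control signal of 46.1. The eosinophil markers found on the array (Epx, Prg2 and Ccr3) were below the floor on all 3 arrays. In RefSeq's gene order Il4 and Il13 are direct neighbours and Il5 follows after 1 further gene. Il4, a further type 2 cytokine, was below the floor on every array, with 8.19 in B16-bearing and 19.4 in LLC-bearing lung, versus 11.3 in normal lung.

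Of the 5 ligands above the floor on all arrays, 1 had its highest signal in the B16-bearing lung, 4 had it in the LLC-bearing lung and 0 in the normal lung, against 35.5%, 30.6% and 33.8% of all genes above the floor throughout. Of the 5, 4 ranged over less than 1.5-fold, or 80%, against 67.8% of the 5136 genes above the floor on all arrays. Between the B16-bearing and LLC-bearing lungs, the robust SD of the log2 difference was 0.63 for all genes with a mean signal from the floor to 50 and 0.50 from 50 to 100. The log2 differences of the 5 ligands between these lungs ran from −0.65 to 0.02.

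Il18, a cytokine of macrophages and epithelium that induces interferon gamma, was above the floor in the normal lung alone. Its signal was 16.2 in B16-bearing and 19.9 in LLC-bearing lung, versus 43.4 in normal lung, or lower by at least 1.84-fold in both. The normal signal of 43.4 itself lay below the highest yeast or Bacillus control signal of 46.1, so it can also come from background. As Il18 was read only through the normal array, it could only be lower. The remaining ligands were below the floor on all 3 arrays. Il10, an anti-inflammatory cytokine, had 19.5, 8.60 and 21.7 in the B16-bearing, the LLC-bearing and the normal lung and came closest to the floor on its best array, followed by Il17a and Il4. Il6, the main inducer of liver acute-phase genes, had 1.78 in B16-bearing and 4.35 in LLC-bearing lung, versus −0.6 in normal lung. The others were Il3, Il7, Il17d, Il15, Il12a, Il2, Il11 and Il12b, and the last 3 were below 0 on all arrays. A signal below the floor shows only that these arrays did not read the gene, not that the lung lacked its RNA.

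The antagonists were also dark. Il1rn, which blocks the interleukin 1 receptor, had −29.4 and −2.12 in the B16-bearing and LLC-bearing lungs, versus −11.9 in the normal lung. Il18bp, which binds interleukin 18, and Il1f5, the antagonist of the interleukin 36 receptor, stayed between −8.98 and 11.3. No difference can be read for these genes.

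Among receptor chains, Il6st and Il27ra of the gp130 group were well above the floor. Il6st had 351 in B16-bearing and 333 in LLC-bearing lung, versus 367 in normal lung. On this brightest probe set its range was 1.10-fold, the narrowest of the 16 members above the floor throughout. The second probe set of Il6st had 103 in B16-bearing and 137 in LLC-bearing lung, versus 127 in normal lung. It did not repeat the order of the arrays, and its B16-bearing and LLC-bearing signals were 1.34-fold apart. Il27ra, which pairs with Il6st to bind interleukin 27, had 414 in B16-bearing and 612 in LLC-bearing lung, versus 595 in normal lung. The B16-bearing lung was lower than both other arrays, by 0.52 on the log2 scale from the normal lung and by 0.56 from the LLC-bearing lung. For genes with mean signals of 400 to 1000 the robust SD between the tumour-bearing lungs was 0.27 and that between the B16-bearing and normal lungs 0.30. Il27ra is known from lymphocytes and myeloid cells. Ptprc, which encodes the pan-leukocyte antigen CD45, was also lowest in the B16-bearing lung. It had 24.98 there and 245 in the LLC-bearing lung, versus 137 in the normal lung. The 24.98 lay just above the floor of 23.6 and below the highest yeast or Bacillus control signal of 46.1. Of the marker sums given below, those of B lymphocytes, NK cells, and macrophages and monocytes were also lowest in the B16-bearing lung. The median log2 differences of their markers from the normal lung were −1.29, −0.04 and −0.45 there. Of the NK cell markers only Gzma reached 2-fold in this comparison. Single markers departed from their sums: Klrk1 and Msr1 were highest in the B16-bearing lung. Cd14 was higher there than in the normal lung, and Cd79b was lowest in the LLC-bearing lung. The neutrophil sum was lowest in the normal lung, with 2869 in B16-bearing and 4360 in LLC-bearing lung, versus 1266. The T lymphocyte sum was highest in B16-bearing lung, with 376 there, 328 in LLC-bearing and 303 in normal lung. The part of any of these cells in the Il27ra values was not tested.

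Il6ra, the chain that gives gp130 its specificity for interleukin 6, had the widest difference among the members that could be read. Its signal was 169 in B16-bearing and 36.1 in LLC-bearing lung, versus 9.7 in normal lung. The B16-bearing lung stood apart, the LLC-bearing lung was just above the floor and the normal lung below it. This places the B16-bearing lung at least 7.15-fold above the normal lung (log2 difference at least 2.84) and 4.67-fold above the LLC-bearing lung (2.22). The LLC-bearing lung was at least 1.53-fold higher than the normal lung. Because the normal signal was below the floor, both comparisons with the normal lung could only come out higher. The array has 1 probe set for Il6ra, so no second one checks it. With the floor at 46.1 or at the 60th percentile (71.3) Il6ra was still at least 2-fold higher in the B16-bearing lung, and with a floor of 100 its log2 difference was 0.75.

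Il6ra is known from hepatocytes, neutrophils, macrophages and some T cells. The 8 hepatocyte markers summed to 160 in B16-bearing and 4730 in LLC-bearing lung, versus 146.5 in normal lung. Of them 2 were above the floor in B16-bearing and 7 in LLC-bearing lung, versus 2 in normal lung, and Ttr was below it on all 3. The 9 neutrophil markers summed to 2869 and 4360 in the B16-bearing and LLC-bearing lungs, versus 1266 in the normal lung, with Ngp below the floor throughout. The 9 macrophage and monocyte markers summed to 2957 in B16-bearing and 4348 in LLC-bearing lung, versus 3522 in normal lung, with Adgre1 and Marco below the floor throughout. Each of these 3 sums was highest in the LLC-bearing lung, and so were most of the markers read, including every hepatocyte marker read. The neutrophil marker S100a9 had 866 in B16-bearing and 1684 in LLC-bearing lung, versus 305 in normal lung. The monocyte marker Ccr2 had 27.8 and 294 in the B16-bearing and LLC-bearing lungs, versus 46.8 in the normal lung. The exceptions, highest in the B16-bearing lung as Il6ra was, were the neutrophil markers Camp and Elane and the macrophage marker Msr1. Camp had 300.2 in B16-bearing and 225 in LLC-bearing lung, versus 171 in normal lung. Elane had 76.5 in B16-bearing and 57.6 in LLC-bearing lung, versus 46.7 in normal lung. Msr1 had 179 in B16-bearing and 120.2 in LLC-bearing lung, versus 112 in normal lung. The T lymphocyte markers are given with Il2rb. The part of any of these cells in the Il6ra values was not tested.

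Il10rb, the shared chain of the interleukin 10 family, had 606 in B16-bearing and 475 in LLC-bearing lung, versus 614 in normal lung. Its partner for interleukin 10, Il10ra, was below the floor everywhere, with 2.47 and 18.6 in the B16-bearing and LLC-bearing lungs, versus 1 in the normal lung. So the shared chain was read on every array and the specific chain on none.

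Il4ra, which binds interleukin 4, was higher in both tumour-bearing lungs, at 294 in B16-bearing and 330.4 in LLC-bearing lung, versus 217 in normal lung. The folds were 1.36 and 1.52, below the 2-fold threshold. Its second probe set had 43.4 in B16-bearing and 16.9 in LLC-bearing lung, versus 26.4 in normal lung, and so did not repeat the order in the LLC-bearing lung. Il13ra1, its partner in the receptor of interleukin 13, had 49.9 and 74.3 in the B16-bearing and LLC-bearing lungs, versus 62.6 in the normal lung. Il13ra2, a decoy for interleukin 13, was between 3.46 and 7.39. B lymphocytes are known to carry Il4ra, and the sum of the 8 B lymphocyte markers found was 315 in B16-bearing and 384 in LLC-bearing lung, versus 856 in normal lung. Only markers above the floor entered these sums, 2 in B16-bearing and 4 in LLC-bearing lung, versus 7 in normal lung. The part of these cells in the Il4ra values was not tested.

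The interleukin 1 family receptors were read with the exception of Il1rap, the accessory chain, which lay between 8.10 and 11.9. Il18r1, which binds interleukin 18, had 185 in B16-bearing and 219 in LLC-bearing lung, versus 227 in normal lung. Il18rap, its signalling partner and its direct neighbour in RefSeq's gene order, had 67.5, 33.1 and 60.4 in the B16-bearing, the LLC-bearing and the normal lung. The LLC-bearing lung was the low one, and the B16-bearing lung was 2.04-fold higher than it (a log2 difference of 1.03). Il1r1, the signalling receptor of interleukin 1, had 123 in B16-bearing and 75.2 in LLC-bearing lung, versus 112.6 in normal lung. Here too the LLC-bearing lung was lowest, 1.64-fold below the B16-bearing lung and 1.5-fold below the normal lung.

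Il17ra, the receptor of interleukin 17A, had 90.3 in B16-bearing and 136 in LLC-bearing lung, versus 88.4 in normal lung. The second probe set, of nearly equal brightness, had 117 in B16-bearing and 132 in LLC-bearing lung, versus 61.9 in normal lung. Both read the LLC-bearing lung as highest and the normal lung as lowest, but they placed the B16-bearing lung differently: 1.02-fold above the normal lung on the first and 1.89-fold on the second. The LLC-bearing lung was 1.54-fold above the normal lung on the first and 2.13-fold on the second, so that the choice of probe set decides whether Il17ra passes 2-fold there. Its ligand Il17a was below the floor, with 18 and −0.607 in the B16-bearing and LLC-bearing lungs, versus 20.1 in the normal lung.

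**Figure D3:**
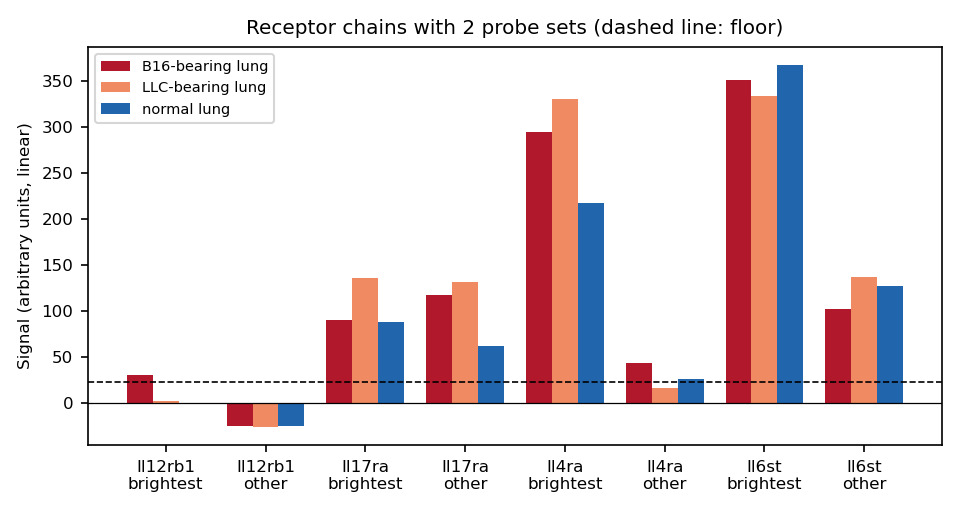
Signals (y axis, arbitrary units, linear) of the 4 receptor chains that have 2 probe sets, with 1 bar per array in the B16-bearing, the LLC-bearing and the normal lung and the floor of 23.6 as a dashed line. Both Il6st probe sets are above 100 on all arrays, whereas the second Il4ra probe set is near the floor and that of Il12rb1 lies below 0.

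Receptors of lymphocyte growth factors were dim. Il7r, needed by developing lymphocytes, had 46.0 in B16-bearing and 44.3 in LLC-bearing lung, versus 35.4 in normal lung. These Il7r values lay below the highest yeast or Bacillus control signal of 46.1. Il2rb, shared by interleukin 2 and interleukin 15 and known from NK and T cells, had 54.3 in B16-bearing and 38.0 in LLC-bearing lung, versus 25.8 in normal lung. The B16-bearing lung was 2.10-fold higher than the normal lung for it (log2 difference 1.07). Il9r had 48.3 in B16-bearing and −30.8 in LLC-bearing lung, versus 63.4 in normal lung. The LLC-bearing lung was at least 2.69-fold lower than the normal lung (−1.43), and the B16-bearing lung at least 2.05-fold higher than the LLC-bearing lung (1.03). Among genes with mean signals from the floor to 50, where Il2rb and Il9r lie, 14.7%, 13.1% and 14.8% differed by at least 2-fold in either direction in the B16-bearing against normal, LLC-bearing against normal and B16-bearing against LLC-bearing comparisons.

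Most T lymphocyte markers were themselves not read. Of 13 listed, 12 were found and 9 of these were below the floor on all 3 arrays, among them Cd3e, Cd3g, Cd3d and Cd8a. The list summed to 376 in B16-bearing and 328 in LLC-bearing lung, versus 303 in normal lung. The 6 NK cell markers found summed to 293 in B16-bearing and 425 in LLC-bearing lung, versus 371 in normal lung, and Ncr1 was below the floor throughout. Not every marker shared the order of its sum. Gzma, the NK cell marker that varied most, had 49.4 in B16-bearing and 154 in LLC-bearing lung, versus 133 in normal lung, while Klrk1 had 64.6 in B16-bearing and 62.4 in LLC-bearing lung, versus 52.9 in normal lung. Of the T lymphocyte markers above the floor on any array, Cd247 was below it in the normal lung, so that 3 genes entered the sum in each tumour-bearing lung and 2 in the normal lung, and Lat was lowest in the B16-bearing lung, with 166 there and 186 in the LLC-bearing lung, versus 179 in the normal lung. The part of these cells in the Il2rb values was not tested.

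Il12rb1, a chain of the interleukin 12 receptor, was above the floor in the B16-bearing lung alone, with 30.4 there and 2.43 in the LLC-bearing lung, versus 0.1 in the normal lung. Its second probe set lay between −25.6 and −24.5, so the first signal was not repeated. The signal of 30.4 also lay below the highest yeast or Bacillus control signal of 46.1. The remaining receptor chains, Il2ra, Il12rb2, Il5ra, Il3ra and Il15ra, were below the floor on every array, as were Il10ra, Il1rap and Il13ra2 given above.

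Counted by comparison, at least 2-fold differences were few. In the B16-bearing lung against the normal lung 20 members could be read; 2 were at least 2-fold higher, Il6ra and Il2rb, against 3.23% of all genes read, and 0 were lower, against 4.73%. In the LLC-bearing lung against the normal lung 19 could be read; 0 were at least 2-fold higher (1, Il17ra, if its second probe set is taken), against 3.95% of all genes, and 1 was lower, Il9r, against 2.98%. In the B16-bearing lung against the LLC-bearing lung 3 of 19 were at least 2-fold higher, Il6ra, Il18rap and Il9r, against 3.41%, and 0 were lower, against 4.95%. All of these were receptor chains with at least 1 signal below 47.2, and the comparisons share arrays. Dim genes reached 2-fold more often than all genes together. Between the B16-bearing and LLC-bearing lungs, 14.8% of genes with mean signals from the floor to 50 did so in either direction. From 50 to 100 it was 13%. Il9r and Il2rb lie in the first of these bands, and Il6ra and Il18rap in the second. Whether these counts exceed the percentages over all genes was not tested.

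**Figure D4:**
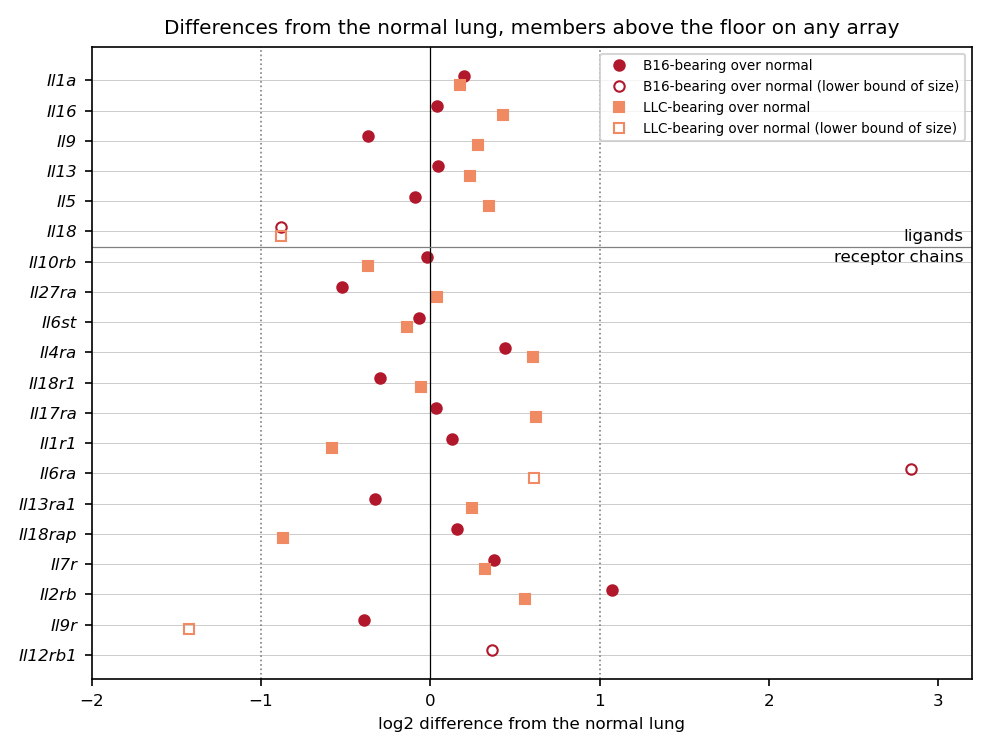
Difference of the B16-bearing and the LLC-bearing lung from the normal lung (x axis, log2) for the 20 members above the floor on any array, with ligands above and receptor chains below the grey line. Open symbols are lower bounds of size, dotted lines mark 2-fold, and Il6ra in the B16-bearing lung, at 2.84, lies farthest from 0.

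By class, the median log2 difference of the ligands that could be read was −0.02 in the B16-bearing lung against the normal lung (6 ligands) and 0.26 in the LLC-bearing lung (6 ligands). For the receptor chains it was 0.08 in the B16-bearing lung (14 chains) and 0.04 in the LLC-bearing lung (13 chains). Over all genes the median was −0.0073 for B16-bearing and −0.00047 for LLC-bearing lung. Members read on 1 side alone could differ in 1 direction alone, which holds for Il18, Il6ra and Il12rb1 and, in the LLC-bearing lung, Il9r. Between the B16-bearing and LLC-bearing lungs the medians were −0.39 for 5 ligands, 0.21 for 14 receptor chains and −0.02 for all genes. The ligand values in the B16-bearing and LLC-bearing comparison spanned −0.65 to 0.02 and the receptor values −0.59 to 2.22, so the classes overlapped. Of the 11 receptor chains above the floor throughout, 4 were highest in the B16-bearing lung, 4 in the LLC-bearing lung and 3 in the normal lung, or 36.4%, 36.4% and 27.3%, near the shares over all genes given with the ligands.

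Ligands and their own receptors were read together in few cases. For 16 ligands whose main binding or signalling chains are among the members, all listed chains were above the floor on all 3 arrays for 6, and the ligand was so too for 1 of them, Il13 (with Il13ra1 and Il4ra). The Il13 signals lay below the highest yeast or Bacillus control signal of 46.1 on all 3 arrays. For Il4, Il7, Il11 and Il17a the listed chains were read on all 3 arrays and the ligand on none. For Il11 the shared chain Il6st was the only one listed. Il5 was above the floor on all 3 arrays with Il5ra, its specific chain, below it on all. Il9 was also above it on all 3, while Il9r was below it in the LLC-bearing lung. For the interleukin 12 subunits Il12a and Il12b neither the ligand nor a chain was read on all arrays. The common gamma chain was not among the members, and further chains outside the members were not considered, so several receptors are covered only in part.

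Of the other genes of interleukin signalling, 41 of 58 listed genes were on the array with a single symbol, and 35 could be read in each comparison with the normal lung. In the B16-bearing lung 2 were at least 2-fold higher than in the normal lung, against 3.23% of all genes, and 2 lower, against 4.73%. In the LLC-bearing lung 3 were higher, against 3.95%, and 0 lower, against 2.98%. Of 34 that could be read between the tumour-bearing lungs, 1 was at least 2-fold higher in the B16-bearing lung, Csf1, against 3.41% of all genes, and 3 were lower, Socs3, Ptpn6 and Ikbkb, against 4.95%. Cish, an inhibitor of cytokine receptors induced through Stat5, was higher in both, with 152 in B16-bearing and 117 in LLC-bearing lung, versus 55.8 in normal lung (2.72-fold and 2.09-fold). Csf1, the macrophage growth factor, was at 207 in B16-bearing and 49.6 in LLC-bearing lung, versus 94.6 in normal lung. Ptpn6, a phosphatase of blood cells that restrains cytokine receptors, was below the floor in B16-bearing and at 109 in LLC-bearing lung, versus 73.4 in normal lung. Ikbkb, a kinase upstream of NF-kappaB, was likewise not above the floor there, with 51.6 in the LLC-bearing lung, versus 54.9 in the normal lung.

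In the LLC-bearing lung the genes at least 2-fold higher beside Cish were Socs3, a feedback inhibitor of gp130 receptors, and Myd88. Socs3 had 62.5 in B16-bearing and 148 in LLC-bearing lung, versus 58.8 in normal lung, so that it was highest on the LLC-bearing array and Il6ra on the B16-bearing array. Myd88, the adaptor of interleukin 1 and Toll-like receptors, had 66.6 in B16-bearing and 109.9 in LLC-bearing lung, versus 52.9 in normal lung. Stat3, the main Stat factor downstream of gp130, had 545 in B16-bearing and 429 in LLC-bearing lung, versus 347.5 in normal lung, a log2 difference of 0.65 and 0.31. No member of the Jak and Stat list reached 2-fold in any comparison, and 7 of the 9 found were above the floor on all 3 arrays. The 7 hepatocyte markers read in the LLC-bearing against normal comparison were all at least 2-fold higher in the LLC-bearing lung. Alb among them had 12.8 in B16-bearing and 1327 in LLC-bearing lung, versus −1.2 in normal lung. The part of such RNA in the other LLC-bearing values, those of Socs3, Myd88 and Cish included, was not tested.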

How the data were processed

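Total RNA from frozen lung was labelled with biotin and hybridised to Affymetrix mouse arrays, 1 per group, per the labels' protocols. The deposited values are intensity values, linear and background-subtracted; the labels do not name the array software. The trimmed mean (2% off each end) of each deposited column was 100.1, which points to a scaling by array before deposit. Arrays carry no depth, and their number limits the precision.

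The 66 manufacturer controls were set aside, leaving 12422 probe sets, of which 10833 have 1 symbol in GEO's platform annotation, 396 several and 1193 none; only the first kind was named. All 43 members matched RefSeq (GRCm38.p6) by gene ID under the same symbol. Each array was multiplied by 1 factor (0.987 for B16-bearing, 1.01 for LLC-bearing and 1 for control), which set the median log2 ratio to control to 0 over probe sets brighter than the median. Signals below the floor of 23.6 were raised to it before log2. A gene was read in a comparison when above the floor on at least 1 of its arrays, and a fold against a signal below the floor is a lower bound. Differences of at least 2-fold were counted, with no test. Marker sums add the signals above the floor, so the brightest markers weigh most.

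All members were named, with signals for each one above the floor on any array. The members, roles and lists were chosen with earlier results of these data known. Scaling, floor and choice of probe set were varied in 10 ways. The steps, run in Python 3.11.15 with numpy 2.4.6 and pandas 2.3.3, were tested on simulated arrays.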

Additional observations from a re-analysis of the deposited data

How the results depend on the processing

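Another scaling (values as deposited, a factor from all probe sets above the floor, quantile normalization), probe sets without a design suffix or the mean of all probe sets of a gene left each count of members above the floor or at least 2-fold different within 1.5 times, and the 2-fold members were again Il6ra, Il2rb, Il18rap and Il9r. Quantile normalization moved the ligand medians to 0.0837 (B16-bearing against control) and −0.26 (B16-bearing against LLC-bearing), and the mean over probe sets moved the receptor median of the last comparison to 0.0541.

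The floor mattered most. Ligands and receptor chains above it numbered 15 and 22 on at least 1 array and 11 and 17 on all 3 with the 20th percentile, which is below 0 and gives no log2 differences. They numbered 3 and 9, then 1 and 7, with the 60th percentile (71.3), and 1 and 8, then 1 and 5, with a signal of 100. With the 95th percentile of the negative values mirrored around 0 (116) they were 1 and 8, then 0 and 5. With the highest yeast or Bacillus control (46.1), a choice made after seeing the data, the ligands were 3 and 3. Members at least 2-fold different numbered 1, 0 and 1 (B16-bearing higher than control, LLC-bearing lower than control, B16-bearing higher than LLC-bearing) with the 60th percentile and with 46.1, where Il6ra was the 1 in both comparisons, and 0, 0 and 0 with 100 and with 116. With 46.1 the other 2-fold members fell short, at log2 differences of 0.24 for Il2rb (B16-bearing against control), 0.55 for Il18rap (B16-bearing against LLC-bearing) and −0.46 for Il9r (LLC-bearing against control). The ligand median in the B16-bearing against control comparison was 0.20 with the 60th percentile and with 100, that of LLC-bearing against control was 0.0287 with 116, and that of B16-bearing against LLC-bearing was −0.0669 with the 60th percentile and 0.0215 with 100 and 116. The receptor median of LLC-bearing against control was −0.0975 with 46.1 and that of B16-bearing against LLC-bearing was −0.0591, −0.0463, −0.0463 and 0.0702 with the 60th percentile, 100, 116 and 46.1. A higher floor leaves fewer members to read and shrinks differences of dim genes by construction. No paired analysis was possible because each group has 1 array.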
